A study of Mus musculus with 19 samples.

Results

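The genes described here are standalone long non-coding RNA (lncRNA) genes, those of RefSeq type lncRNA whose ends both lie more than 1 kb from every protein-coding gene end, and the CBFA2T2 peaks at their ends. Of 12727 lncRNA genes with coordinates in the mouse annotation GRCm38.p6, 10688 met this rule, among 49976 genes of all types. Chromatin immunoprecipitation sequencing (ChIP-seq) with an antibody against CBFA2T2 had been carried out in NE-4C, a mouse neural stem cell line that lacks p53. The H3.3K27M cells lacked H3f3a, a gene for histone variant H3.3, and stably expressed HA-tagged H3.3 with methionine in place of a lysine of its tail. H3.3WT cells lacked H3f3a as well and carried stable HA-tagged H3.3 of wild-type sequence, and whether either line is a single clone is not stated. Each genotype gave 1 peak list, with 8272 peaks in H3.3K27M and 6920 in H3.3WT. A gene is called marked when a peak summit lies within 1 kb of either of its ends. In all, 325 of the 10688 genes were marked in at least 1 list. With 1 library per genotype no difference between genotypes could be tested. The lists hold no expression values, so the labelled cell type could not be checked against its markers. The depth of the libraries is unknown, and the intervals given with shares are 95% Wilson intervals that cover counting error only.

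CBFA2T2 belongs to the MTG (ETO) family of corepressors. These proteins are brought to DNA by transcription factors and recruit histone deacetylases and other corepressors. In pluripotent cells CBFA2T2 is known as a partner of PRDM14. LncRNA genes are transcribed by RNA polymerase II like coding genes, and some serve as hosts from which snoRNAs or miRNAs are processed, while others act as RNAs in the nucleus. The K27M form of H3.3 is known from childhood midline glioma and is an inhibitor of the methyltransferase complex PRC2.

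Start windows that held a CBFA2T2 summit are shown for 7 genes, 4 of strong peaks and 3 of named lncRNAs, because most peaks at these genes lay at the start. Each is the RefSeq window of 300 bases on GRCm38.p6, from 250 bases before the start to 50 after it, written along the strand of the gene. Capitals mark letters of the searched motifs on either strand: the GC box GGGCGG, the box CCAAT known for the factor NF-Y, the site CCGGAAG of ETS factors, the cyclic AMP response element (CRE) TGACGTCA, the site GCATGCGC of the factor NRF1, the E-box CAGGTG, the site AAGATGGC of the factor YY1, the site TGTGGT of RUNX factors, the site ACTACAA of the factors ZNF143 and THAP11, and the TATA box TATAAA. The motif CAGCTG was searched too, and the B box of tRNA genes as GTTCGANNC.
4933404O12Rik, chr5:136918896-136919195, plus strand: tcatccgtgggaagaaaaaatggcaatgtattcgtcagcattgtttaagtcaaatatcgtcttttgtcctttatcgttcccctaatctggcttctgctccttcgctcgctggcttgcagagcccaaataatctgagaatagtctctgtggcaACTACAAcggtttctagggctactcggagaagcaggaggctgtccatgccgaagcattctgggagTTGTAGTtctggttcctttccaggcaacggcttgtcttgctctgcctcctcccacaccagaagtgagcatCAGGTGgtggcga
Zfp335os, chr2:164911183-164911482, plus strand: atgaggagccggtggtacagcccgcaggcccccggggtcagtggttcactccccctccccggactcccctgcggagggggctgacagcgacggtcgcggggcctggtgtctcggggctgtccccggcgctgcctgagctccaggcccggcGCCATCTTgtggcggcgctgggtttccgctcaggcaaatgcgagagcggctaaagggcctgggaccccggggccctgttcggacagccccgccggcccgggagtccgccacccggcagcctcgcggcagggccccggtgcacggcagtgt
1810044D09Rik, chr6:91440737-91441036, plus strand: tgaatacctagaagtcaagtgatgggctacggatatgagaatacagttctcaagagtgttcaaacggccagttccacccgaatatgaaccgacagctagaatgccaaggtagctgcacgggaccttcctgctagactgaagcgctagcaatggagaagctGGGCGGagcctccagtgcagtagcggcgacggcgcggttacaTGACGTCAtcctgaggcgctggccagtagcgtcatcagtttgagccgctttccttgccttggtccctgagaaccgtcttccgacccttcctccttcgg
Gm42007, chr5:115484200-115484499, plus strand: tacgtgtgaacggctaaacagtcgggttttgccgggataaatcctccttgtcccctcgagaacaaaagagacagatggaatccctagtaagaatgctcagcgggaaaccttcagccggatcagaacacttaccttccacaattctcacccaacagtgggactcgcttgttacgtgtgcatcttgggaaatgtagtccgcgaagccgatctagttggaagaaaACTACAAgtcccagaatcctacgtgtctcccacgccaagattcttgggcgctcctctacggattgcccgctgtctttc
Snhg9, chr17:24719916-24720215, minus strand: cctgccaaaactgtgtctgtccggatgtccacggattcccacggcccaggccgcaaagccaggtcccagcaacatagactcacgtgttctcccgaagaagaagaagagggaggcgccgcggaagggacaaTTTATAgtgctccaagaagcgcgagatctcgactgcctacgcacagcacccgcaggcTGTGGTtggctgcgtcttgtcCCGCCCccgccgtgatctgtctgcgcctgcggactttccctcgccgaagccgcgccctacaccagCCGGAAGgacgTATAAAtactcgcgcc
Mir22hg, chr11:75461289-75461588, plus strand: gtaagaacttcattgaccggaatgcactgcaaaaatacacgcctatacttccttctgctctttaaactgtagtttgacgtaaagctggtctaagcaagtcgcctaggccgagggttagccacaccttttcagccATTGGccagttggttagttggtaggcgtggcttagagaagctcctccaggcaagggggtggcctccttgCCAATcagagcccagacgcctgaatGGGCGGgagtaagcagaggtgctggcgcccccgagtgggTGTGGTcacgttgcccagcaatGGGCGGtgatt
Jpx, chrX:103493308-103493607, plus strand: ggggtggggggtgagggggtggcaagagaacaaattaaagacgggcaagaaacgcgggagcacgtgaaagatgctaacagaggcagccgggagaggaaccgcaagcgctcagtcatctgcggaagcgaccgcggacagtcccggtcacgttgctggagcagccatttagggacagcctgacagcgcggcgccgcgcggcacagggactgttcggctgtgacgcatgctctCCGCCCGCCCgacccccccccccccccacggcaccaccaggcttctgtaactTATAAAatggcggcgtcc
The window of 4933404O12Rik held the ZNF143/THAP11 letters at 2 places, and its summits lay at base 213 in H3.3K27M and base 297 in H3.3WT. Zfp335os had a single YY1 match, with summits at base 191 in H3.3K27M and base 266 in H3.3WT. 1810044D09Rik carried a full CRE and a GC box, with summits at bases 221 in H3.3K27M and 207 in H3.3WT. The Gm42007 window has 1 match to ACTACAA, and its summits lay at bases 241 in H3.3K27M and 259 in H3.3WT. In Snhg9 the GC box, ETS, RUNX and TATA letters were all present, and its summits lay at bases 35 in H3.3K27M and 170 in H3.3WT. Mir22hg had 2 GC boxes, 2 CCAAT boxes and a RUNX match. Its summits lay at bases 18 in H3.3K27M and 67 in H3.3WT, before all of these matches. Jpx holds 2 overlapping GC boxes, and its summit, in the H3.3K27M list alone, lay at base 269. A match is a run of letters and no more than that.

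Standalone lncRNA genes were marked far less often than coding genes. In H3.3K27M, 279 of 10688 were marked, which is 2.61% (2.32 to 2.93%), against 28.6% of protein-coding genes and 15.2% of all annotated genes. In H3.3WT, 198 were marked, which is 1.85% (1.61 to 2.13%), against 24.8% of protein-coding genes and 13.0% of all genes. LncRNA genes with an end within 1 kb of a coding gene end, which the rule leaves out, were marked in 31.4% of cases in H3.3K27M and 26.6% in H3.3WT. Among other non-coding types, 29.5% of tRNA genes and 5.28% of snRNA genes were marked in H3.3K27M, and 21.4% and 4.98% in H3.3WT. Pseudogenes had 0.945% in H3.3K27M and 0.463% in H3.3WT. Unlike the standalone lncRNA genes, these other types were not filtered by their distance from coding gene ends. Seen from the peaks, 3.37% of the H3.3K27M list (279 of 8272) and 2.86% of the H3.3WT list (198 of 6920) had a summit at a standalone lncRNA end. Of the peaks more than 1 kb from coding gene ends, these made up 9.03% (265 of 2935) in H3.3K27M and 7.87% (187 of 2376) in H3.3WT.

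The share of marked genes was higher near coding genes than far from them. With the nearer end 1 to 2 kb from a coding gene end, 52 of 679 genes were marked in H3.3K27M, which is 7.66% (5.89 to 9.91%), and 33 in H3.3WT, which is 4.86% (3.48 to 6.75%). At over 100 kb, 22 of 2514 were marked in H3.3K27M, which is 0.875% (0.579 to 1.32%), and 15 in H3.3WT, which is 0.597% (0.362 to 0.982%). Intervals of these outer classes did not overlap in either list. In the class of 1 to 2 kb, 14 of the genes marked in H3.3K27M and 11 of those marked in H3.3WT had their summit within 1 kb of a coding gene end as well. Without such summits this class had 5.60% (4.10 to 7.59%) in H3.3K27M and 3.24% (2.15 to 4.86%) in H3.3WT, next to 5.06% (3.93 to 6.50%) in H3.3K27M and 3.64% (2.70 to 4.90%) in H3.3WT at 2 to 5 kb, with overlapping intervals in both lists. They still did not overlap with those of the class over 100 kb. Classes between 10 and 100 kb had overlapping intervals, with 1.95%, 2.19% and 1.80% in H3.3K27M and 1.18%, 1.87% and 1.26% in H3.3WT. Genes that overlapped a coding gene were marked in 3.51% of cases in H3.3K27M and 2.50% in H3.3WT, and intergenic ones in 2.20% in H3.3K27M and 1.56% in H3.3WT. Curated RefSeq records (NR) reached 5.39% in H3.3K27M and 4.21% in H3.3WT, while records predicted from models (XR) reached 1.78% in H3.3K27M and 1.14% in H3.3WT. By symbol, genes with a Rik name were marked in 5.62% of cases in H3.3K27M and 3.84% in H3.3WT, and genes with a Gm number in 1.96% in H3.3K27M and 1.39% in H3.3WT.

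**Figure D1:**
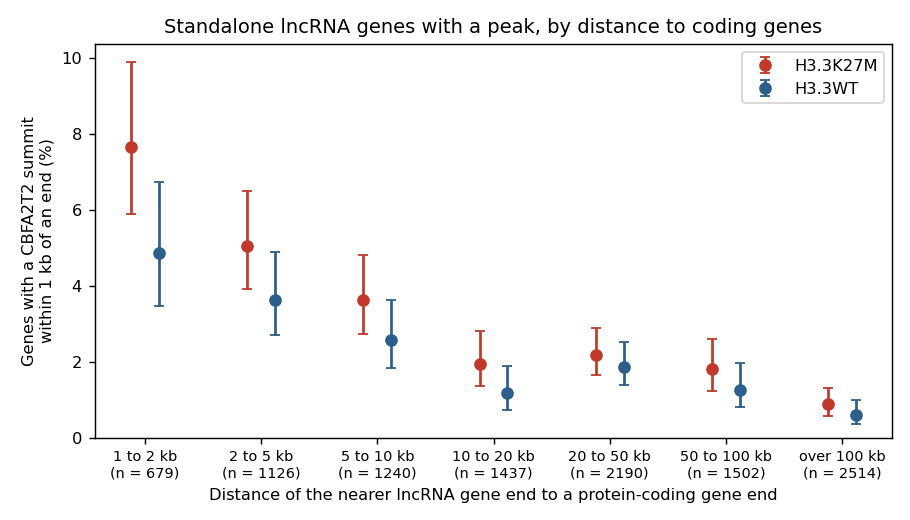
Share of standalone lncRNA genes with a CBFA2T2 summit within 1 kb of an end (y axis, percent) by the distance of their nearer end to a protein-coding gene end (x axis), for H3.3K27M (red, left) and H3.3WT (blue, right). Bars are 95% Wilson intervals over genes, with n genes per class; shares at 1 to 2 kb and over 100 kb were 7.66% and 0.875% in H3.3K27M and 4.86% and 0.597% in H3.3WT, and the class of 1 to 2 kb includes summits that also lie at coding gene ends.

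Both lists marked 152 of the genes, H3.3K27M alone marked 127 and H3.3WT alone 46. These counts depended on the lengths of the lists: with the H3.3K27M list cut by −log10 q to the length of the other, H3.3K27M marked 211 genes (1.97%) and H3.3WT 198, and 74 were marked in H3.3K27M alone and 61 in H3.3WT alone. Among coding genes 22.2% were marked in both lists, 6.40% in H3.3K27M alone and 2.60% in H3.3WT alone. Of the lncRNA genes marked in H3.3K27M, 54.5% (48.6 to 60.2%) were also marked in H3.3WT, while for coding genes this share was 77.6%. Of those marked in H3.3WT, 76.8% (70.4 to 82.1%) were also marked in H3.3K27M, against 89.5% for coding genes. By overlap of the peaks, 54.8% (49.0 to 60.6%) of H3.3K27M peaks and 76.3% (69.9 to 81.7%) of H3.3WT peaks at these ends met a peak of the other list. With equal list lengths the shares were 67.0% in H3.3K27M and 69.2% in H3.3WT. The shares that follow, like the 54.8% and 76.3%, are of the full lists. For other peaks more than 1 kb from coding gene ends they were 50.7% in H3.3K27M and 61.7% in H3.3WT. At coding gene ends they were 74.7% in H3.3K27M and 88.1% in H3.3WT.

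Genes marked in a single list had lower peaks. The median fold enrichment, as the authors' peak caller gave it, was 4.38 at the 127 genes marked in H3.3K27M alone, against 5.88 for H3.3K27M peaks at genes marked in both. In the H3.3WT list it was 4.65 at the 46 genes marked there alone, against 6.16 at genes marked in both. A −log10 q under 5 was found at 65 of the 127 genes marked in H3.3K27M alone (51.2%) and at 20 of the 152 in both (13.2%). In H3.3WT such weak peaks were found at 24 of 46 genes (52.2%) and at 30 of 152 (19.7%). A site near the calling threshold can be present in 1 list and missing in the other at nearly equal enrichment, so these counts do not measure gain or loss. In 6 genes of the H3.3K27M set and 4 of the H3.3WT set there was an overlapping peak of the other list whose summit fell outside the window.

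**Figure D2:**
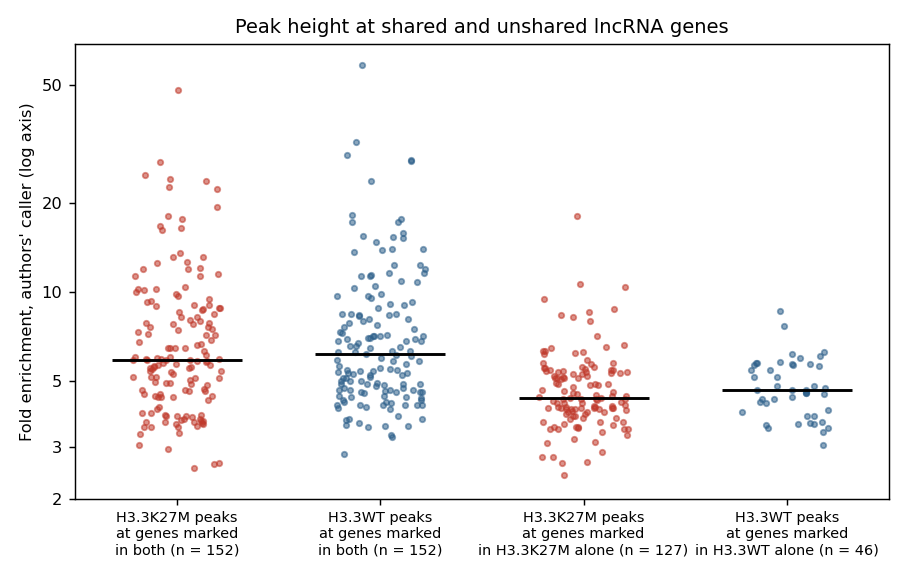
Fold enrichment, as the authors' caller gave it, of the CBFA2T2 peak at each marked standalone lncRNA gene (y axis, logarithmic), for genes marked in both lists and in 1 list alone, with H3.3K27M in red and H3.3WT in blue. Each point is a gene and black lines are medians, 5.88 in H3.3K27M and 6.16 in H3.3WT for genes marked in both and 4.38 and 4.65 for genes marked in H3.3K27M alone and in H3.3WT alone.

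Peaks at standalone lncRNA ends were lower than those at coding genes within the same list. Their median fold, over marked genes with 1 peak each, was 5.15 in H3.3K27M (range 2.40 to 48.1), with a 95% interval of the median from 4.87 to 5.41. The values set beside it are medians over peaks, 6.03 (5.90 to 6.12) at coding gene ends and 5.16 at other peaks far from coding gene ends. In H3.3WT the median over marked genes was 5.51 (range 2.82 to 58.8), with an interval from 5.15 to 5.998. Over peaks it was 6.63 (6.50 to 6.78) at coding gene ends and 5.70 at the other far peaks. At least 10 fold was reached by 31 of 279 peaks in H3.3K27M (11.1%), where 17.05% of the list reached it. In H3.3WT 30 of 198 peaks reached it (15.2%), where 21.1% of the list did. Over the 152 genes marked in both, the fold values of the lists had a Spearman rho of 0.70, a description across genes of the same pair of libraries. Summits at these genes lay a median of 58 bp apart, and 109 of 152 lay within 100 bp of each other. At 7 genes they lay over 500 bp apart, and at 5 of these over 1000 bp, with a largest gap of 10897 bp. Malat1 and Snhg5 are among the 5, so the rho also pairs peaks at opposite ends of a gene.

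The highest peaks were largely at uncharacterised genes. Gm27011 (chr8:121949678-121950645), inside the coding gene Banp, had 48.1 fold in the H3.3K27M list, against 58.8 fold in the H3.3WT list, rank 17 of all peaks in H3.3K27M and rank 8 in H3.3WT. Gm38944 had 27.6 fold in the H3.3K27M list, against 18.2 fold in the H3.3WT list. Gm39001 had 24.9 fold in the H3.3K27M list, against 29.0 fold in the H3.3WT list. The list with the higher value thus differed between these genes. 4933404O12Rik had 24.2 fold in the H3.3K27M list, against 23.7 fold in the H3.3WT list, nearly the same in both. Zfp335os, an end of which lies 1152 bp from one of the zinc finger gene Zfp335, had 23.7 fold in the H3.3K27M list, against 32.2 fold in the H3.3WT list. Rab10os, antisense by its name to the small GTPase gene Rab10, had 22.7 fold in the H3.3K27M list, against 27.9 fold in the H3.3WT list. The gene B930059L03Rik had 22.4 fold in the H3.3K27M list, against 27.6 fold in the H3.3WT list. In these 3 genes the H3.3WT value was the higher. Over all peaks the median fold was higher in the H3.3WT list too, 6.21 against 5.63 in the H3.3K27M list. Differences between the lists at single genes were not tested. Gm41209 had 18.1 fold in the H3.3K27M list, against 11.6 fold in the H3.3WT list. Of the 12 genes that held a place among the 10 highest of either list, 11 were marked in both. The exception by the rule, C030034I22Rik with 18.1 fold in H3.3K27M, had an H3.3WT peak of 20.2 fold whose summit lay 80 bp away and outside the window. Gm31936 had 5.66 fold in the H3.3K27M list, against 17.3 fold in the H3.3WT list. 1600020E01Rik had 16.4 fold in the H3.3K27M list, against 17.3 fold in the H3.3WT list, but these summits also lay within 1 kb of an end of Pcbp1, which codes for an RNA-binding protein.

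**Figure D3:**
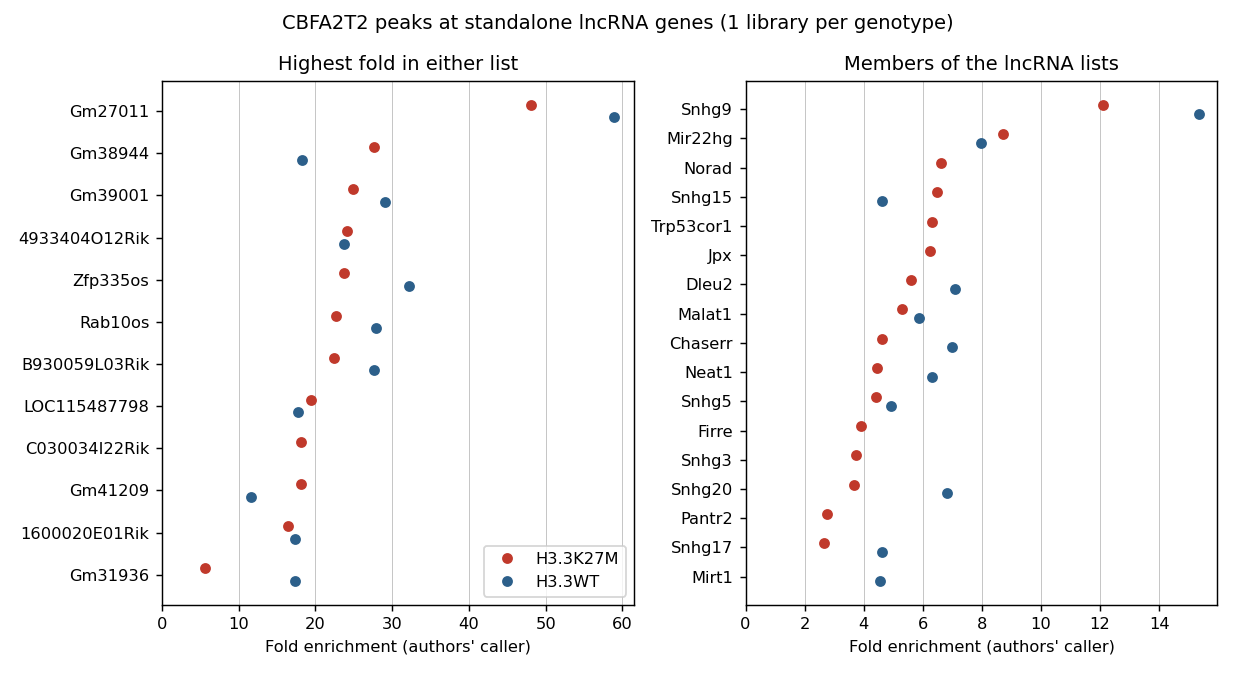
Fold enrichment, as the authors' caller gave it, of CBFA2T2 peaks (x axis, linear) at standalone lncRNA genes, for the genes of highest fold in either list (left) and the marked members of the lncRNA lists (right). Red points are H3.3K27M and blue points below them H3.3WT, 1 library each; a missing point is a gene without a summit within 1 kb in that list, as for Norad, Trp53cor1 and Jpx in H3.3WT.

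Peaks lay at the start of these genes and seldom at their finish. Strand was known for 7978 of the 10688 genes, and 7195 of them were over 2 kb, so that the windows of their ends do not overlap. At the start, 160 of the 7195 had a summit in H3.3K27M, which is 2.22% (1.91 to 2.59%), and 114 in H3.3WT, which is 1.58% (1.32 to 1.90%). At the finish there were 29 in H3.3K27M, 0.403% (0.281 to 0.578%), and 17 in H3.3WT, 0.236% (0.148 to 0.378%). Of the marked genes in this set, 85.1% (79.3 to 89.5%) had a summit at the start in H3.3K27M and 87.7% (80.9 to 92.3%) in H3.3WT. Coding genes over 2 kb had 96.9% in H3.3K27M and 97.1% in H3.3WT. Among summits at the start, 87 of 160 lay within 250 bp of it in H3.3K27M and 63 of 114 in H3.3WT. Near the finish this was 4 of 29 in H3.3K27M and 0 of 17 in H3.3WT. Here and below, the upper limit given for a count of 0 is 3 genes or summits of the total and not a Wilson bound, and 0 of 17 allows a share of up to 17.6%. Median positions were 10 bp before the start in H3.3K27M and 10 bp after it in H3.3WT.

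**Figure D4:**
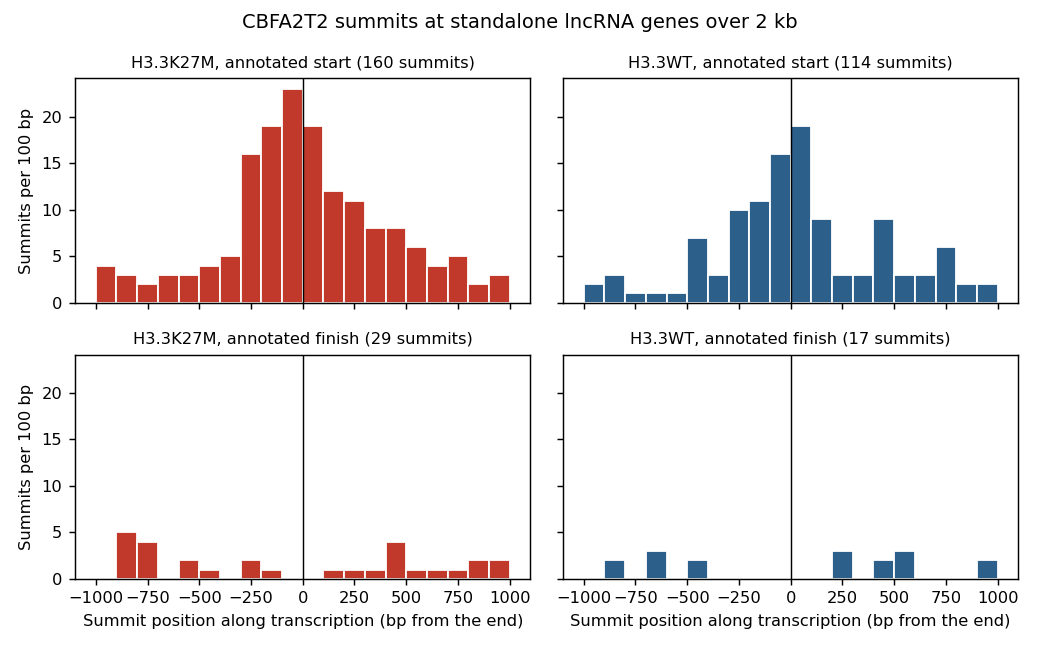
Positions of CBFA2T2 summits (x axis, bp along the direction of transcription, 0 at the annotated end) at the start (upper row) and finish (lower row) of standalone lncRNA genes over 2 kb with a known strand; the y axis counts summits per 100 bp, with H3.3K27M left and H3.3WT right. Summits gathered around the start, where 87 of 160 in H3.3K27M and 63 of 114 in H3.3WT lay within 250 bp, and were scattered around the finish.

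Marked genes had starts rich in CpG. RefSeq start windows of standalone lncRNA genes with a peak within 1 kb of the start in either list (281 windows of 240 genes) had a median of 15 CpG and an observed over expected CpG ratio of 0.62, against 3 CpG and 0.22 in 9451 windows without a peak. Coding genes showed 0.84 with a peak and 0.33 without. In windows with a ratio of 0.6 and over, 138 of 702 lncRNA windows had a summit in H3.3K27M, 19.7% (16.9 to 22.8%), and 104 in H3.3WT, 14.8% (12.4 to 17.6%). Under a ratio of 0.2 the shares were 0.615% (27 of 4390) in H3.3K27M and 0.273% (12 of 4390) in H3.3WT. Coding gene windows of 0.6 and over had 53.8% in H3.3K27M and 47.1% in H3.3WT, and those under 0.2 had 0.703% in H3.3K27M and 0.511% in H3.3WT. At ratios of 0.2 to 0.4, lncRNA windows had 1.25% in H3.3K27M and 0.729% in H3.3WT, and coding windows 5.33% in H3.3K27M and 4.11% in H3.3WT. At 0.4 to 0.6, lncRNA windows had 3.23% in H3.3K27M and 2.98% in H3.3WT, and coding windows 21.8% in H3.3K27M and 18.05% in H3.3WT. The intervals of lncRNA and coding windows overlapped under 0.2 and in none of the other 3 classes, in both lists. Windows of 1 gene share bases and are not independent.

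**Figure D5:**
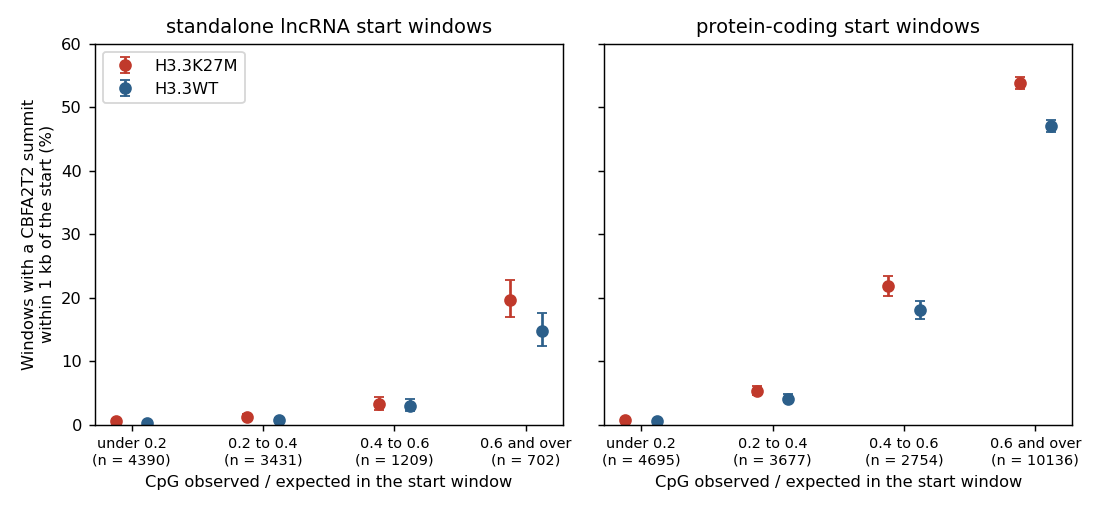
Share of RefSeq start windows with a CBFA2T2 summit within 1 kb of the start (y axis, percent) by the ratio of observed to expected CpG (x axis), for standalone lncRNA genes (left) and protein-coding genes (right). Red is H3.3K27M and blue H3.3WT, bars are 95% Wilson intervals and n counts windows; at a ratio of 0.6 and over, lncRNA windows reached 19.7% in H3.3K27M and 14.8% in H3.3WT, and coding windows 53.8% in H3.3K27M and 47.1% in H3.3WT.

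The GC box, ETS, CRE and NRF1 letters were more frequent in lncRNA start windows with a peak than in those without, and TATAAA was less frequent. The GC box GGGCGG, a site of SP factors, was in 50.2% of lncRNA windows with a peak, 9.54% of those without, 68.0% of coding windows with a peak and 35.7% of all 32851 windows. The ETS letters CCGGAAG, as in Snhg9, were in 10.3% of lncRNA windows with a peak and 2.67% without, against 8.86% of all windows. A full CRE, as in 1810044D09Rik, was in 3.56% with a peak and 0.677% without, against 1.79% of all windows. The NRF1 letters were in 2.85% with a peak and 0.772% without, against 2.71% of all windows. TATAAA was in 9.25% with a peak and 17.2% without, against 13.6% of all. The RUNX letters TGTGGT, of interest because a relative of CBFA2T2 is fused to RUNX1 in leukaemia, were in 16.0% with a peak and 21.1% without, against 16.8% of all. E-box letters CAGGTG were in 17.4% with a peak and 20.8% without, and CAGCTG in 17.1% with a peak and 17.7% without, against 20.2% and 16.3% of all windows. CCAAT had 30.2% with a peak and 36.6% without, and AAGATGGC had 3.56% with a peak and 2.14% without. ACTACAA, present in 4933404O12Rik and Gm42007, was in 5 of 281 windows with a peak, 1.78%, and 2.67% of those without, while coding windows with a peak had 6.50%. The B box letters were found in 0.356% with a peak and 0.698% without. The windows were not matched for base composition.

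The list drawn up for snoRNA hosts had the highest share of marked genes among the 10 lncRNA lists examined. Of 9 standalone genes on this list, 6 were marked in H3.3K27M and 5 in H3.3WT, where 2.61% and 1.85% of all standalone lncRNA genes were. Among curated records (NR), which were marked more often than predicted ones, the shares were 5.39% in H3.3K27M and 4.21% in H3.3WT. Snhg9 (chr17:24719531-24719965), the host of Snora78, lies within the span of the ribosomal protein gene Rps2, 1410 bp from its nearer end, and had 12.1 fold in the H3.3K27M list, against 15.3 fold in the H3.3WT list. Snhg15 had 6.49 fold in the H3.3K27M list, against 4.61 fold in the H3.3WT list. Snhg20, in which the annotation places the miRNA gene Mir6516 and no snoRNA gene, had 3.66 fold in the H3.3K27M list, against 6.82 fold in the H3.3WT list. Snhg17 had 2.64 fold in the H3.3K27M list, against 4.63 fold in the H3.3WT list. These genes had their summit at the start in both lists, except that Snhg9 is shorter than 1 kb and its summits lay near both ends. In Snhg5 the summits were at opposite ends, 405 bp before the start at 4.41 fold in H3.3K27M and beyond the finish at 4.94 fold in H3.3WT, 2888 bp apart. Snhg3, the host of Snora73a and Snora73b, had 3.75 fold in H3.3K27M and no summit within 1 kb in H3.3WT. Dancr, Snhg4 and Snhg11 had none in either list. Over all members that hold a snoRNA gene, 8 of 76 were marked in H3.3K27M (10.5%, 5.43 to 19.4%) and 5 of 76 in H3.3WT (6.58%, 2.84 to 14.5%).

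Mature miRNAs from marked hosts are shown as RefSeq gives them on GRCm38.p6, with the seed (bases 2 to 8) in capitals, for 4 of the 7 hosts.
mmu-miR-302b-3p: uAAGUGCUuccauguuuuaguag
mmu-miR-302d-3p: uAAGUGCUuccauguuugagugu
mmu-miR-302c-3p: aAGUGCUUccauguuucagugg
mmu-miR-367-3p: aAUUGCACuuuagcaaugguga
mmu-miR-15a-5p: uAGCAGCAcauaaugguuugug
mmu-miR-16-5p: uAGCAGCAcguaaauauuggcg
mmu-miR-22-3p: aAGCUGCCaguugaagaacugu
mmu-miR-101a-3p: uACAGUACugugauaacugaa
miR-302b-3p and miR-302d-3p share the seed AAGUGCU, and miR-15a-5p and miR-16-5p share AGCAGCA. In all, 7 marked genes held 12 miRNA genes. Gm51018 (chr3:127545089-127546903), which spans Mir302b, Mir302c, Mir302a, Mir302d and Mir367, a cluster known from embryonic stem cells, lies inside Larp7. Its start peak had 10.3 fold in the H3.3K27M list, against 6.34 fold in the H3.3WT list, with summits 430 bp (H3.3K27M) and 493 bp (H3.3WT) from Mir302b. A lower peak at its finish had 3.76 fold in the H3.3K27M list, against 4.39 fold in the H3.3WT list. Mir22hg (chr11:75461539-75466690), host of Mir22, had 8.70 fold in the H3.3K27M list, against 7.96 fold in the H3.3WT list. Dleu2 (chr14:61602836-61682373), host of the Mir15a and Mir16-1 pair that acts on cell cycle genes, had peaks of 5.59 and 4.75 fold near its start in H3.3K27M and 1 of 7.08 fold in H3.3WT. E130102H24Rik, host of Mir101a, was marked in both lists. Of the 89 standalone genes that hold a miRNA gene, 6 were marked in H3.3K27M and 6 in H3.3WT (6.74% each, 3.13 to 13.9%), against 2.61% in H3.3K27M and 1.85% in H3.3WT over all standalone lncRNA genes. Mir17hg, Mir155hg and Mir9-3hg were among the 11 of 14 genes on the list drawn up for miRNA hosts without a summit within 1 kb in either list. The marked genes of that list were Dleu2, Mir22hg and Mirt1, and Mirt1 is not among the 7 marked genes that held a miRNA gene.

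On the list of nuclear and abundant regulatory lncRNAs, 6 of 11 were marked in H3.3K27M and 4 in H3.3WT. The share of all standalone lncRNA genes was 2.61% in H3.3K27M and 1.85% in H3.3WT. Curated records (NR) had 5.39% in H3.3K27M and 4.21% in H3.3WT. Neat1, the scaffold of paraspeckles, had 4.44 fold in the H3.3K27M list, against 6.31 fold in the H3.3WT list. Malat1, an RNA of nuclear speckles, had 4.41 fold before its start and 5.30 fold beyond its finish in H3.3K27M, and 5.86 fold before its start in H3.3WT. Chaserr, a regulator of its neighbour Chd2, had 4.62 fold in the H3.3K27M list, against 6.998 fold in the H3.3WT list. Norad, which binds Pumilio proteins, had 6.60 fold in H3.3K27M, with no H3.3WT summit within 1 kb. Trp53cor1 (lincRNA-p21), a p53 target next to Cdkn1a, had 6.30 fold in H3.3K27M and no H3.3WT summit within 1 kb. Its summit lay 544 bp outside the gene and also marked Gm41556, and the cells lack p53. On the list of p53 and stress lncRNAs, which shares genes with the others, 4 of 9 were marked in H3.3K27M and 3 in H3.3WT. The shares to set beside them are the same, those of all standalone lncRNA genes and of curated records. Marked genes of this list were Mir22hg, Neat1 and Snhg15 in both peak lists, and Trp53cor1 in H3.3K27M.

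Of 4 regulators of X inactivation, 2 were marked in H3.3K27M and 0 in H3.3WT, which allows a share of up to 75%. Over all standalone lncRNA genes the shares were 2.61% in H3.3K27M, 1.85% in H3.3WT and 1.19% in H3.3K27M alone. Curated records (NR) had 5.39% in H3.3K27M and 4.21% in H3.3WT. Jpx (chrX:103493558-103506425), an activator of Xist, had 6.26 fold with −log10 q of 6.34 and a summit 18 bp after its start. Firre, an X-linked RNA of nuclear organisation, had 3.92 fold with −log10 q of 3.07 and a summit 39 bp after its start. In H3.3WT the nearest peak summits lay 123484 bp and 178989 bp from these. Xist and Ftx had no summit within 1 kb in either list. The list of imprinted lncRNAs had been drawn up with Jpx on it, although Jpx is named here as a regulator of X inactivation. Jpx was the single marked gene of the 10 on that list. In H3.3WT 0 of the 10 were marked, which allows a share of up to 30%. The other 9, with H19, Meg3, Airn and Kcnq1ot1 among them, were unmarked in both peak lists.

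Lists of lncRNAs of development and of other cell types had 0 or 1 marked gene each. Over all standalone lncRNA genes 2.61% in H3.3K27M and 1.85% in H3.3WT were marked, under 1 gene in a list of these sizes, so these counts are near the background. Of 16 neural lncRNAs, 1 was marked in H3.3K27M, Pantr2, a neighbour of Pou3f3, at 2.77 fold with −log10 q of 1.49. In H3.3WT 0 of the 16 were marked, which allows a share of up to 18.75%. Sox2ot, Rmst, Miat, Dlx6os1 and Six3os1 were among those without a summit within 1 kb. None of 20 pluripotency lncRNAs was marked in either list, Tunar and Lncenc1 included, which allows a share of up to 15%. Hox and other developmental antisense genes had 0 of 7 in both lists, which allows up to 42.9%, and Hotair, Hottip and Fendrr were among them. Of 11 lncRNAs of heart, muscle, blood and immune cells, 0 were marked in H3.3K27M, which allows a share of up to 27.3%. In H3.3WT 1 was marked, Mirt1 at 4.57 fold with −log10 q of 2.88. Over all lists, 16 of 89 genes were marked in H3.3K27M and 11 in H3.3WT, 10 of them in both, and 72 in neither.

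Several peaks at standalone lncRNA ends also lay at genes for small RNAs. A tRNA gene end was within 1 kb of 14 of the 279 summits in H3.3K27M and of 9 of the 198 in H3.3WT, an snRNA gene end of 5 in H3.3K27M and 4 in H3.3WT, and a coding gene end of 14 in H3.3K27M and 11 in H3.3WT. LOC115487798 overlaps the gene Rnu3b1 of U3 RNA, which serves ribosomal RNA processing, and its summit lay 4 bp from it at 19.4 fold in H3.3K27M and 35 bp from it at 17.7 fold in H3.3WT. C920006O11Rik was marked in H3.3K27M by a summit 34 bp from Rn7sk, the gene of 7SK RNA. At D230017M19Rik the summit lay on the snRNA gene Gm24497 in H3.3K27M and 28 bp from it in H3.3WT. 4833417C18Rik and Gm38959 shared a peak whose summit lay on the glutamine tRNA gene n-TQttg6 in H3.3K27M and 21 bp from it in H3.3WT. Standalone lncRNA genes that hold a tRNA gene were marked in 9 of 33 cases in H3.3K27M (27.3%, 15.1 to 44.2%) and 7 of 33 in H3.3WT (21.2%, 10.7 to 37.8%). Over all standalone lncRNA genes 2.61% in H3.3K27M and 1.85% in H3.3WT were marked, and over tRNA genes 29.5% in H3.3K27M and 21.4% in H3.3WT, close to the share of those that hold one. A peak at such a place cannot be assigned to the lncRNA or to the small RNA gene.

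The strongest genes marked in a single list with no peak of the other within 1 kb had moderate peaks. In H3.3K27M these were Gm13483 (10.4 fold), with an end 2211 bp from one of Mmadhc, a gene of cobalamin metabolism, and Gm26562 (8.75 fold), Gm36416 (9.45 fold), Gm51459 (8.26 fold) and Gm36208 (8.59 fold), with −log10 q between 12.6 and 26.5. In H3.3WT they were Gm26682 (8.66 fold), Gm32746 (7.66 fold), Gm11205 (4.82 fold), Gm11627 (5.999 fold) and AW046200 (6.18 fold), with −log10 q between 7.81 and 12.6. The Gm11205 summit lay on the tRNA gene n-TTcgt3. A peak served 2 standalone lncRNA genes at 7 places in H3.3K27M and 5 in H3.3WT. At one of these, 4930471M09Rik and 1810044D09Rik shared a peak of 11.3 fold in the H3.3K27M list, against 14.0 fold in the H3.3WT list.

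At the edge of the window, the last genes inside in H3.3K27M were Gm51862 and 1600020E01Rik at 997 bp and Gm36371 at 1000 bp, and the first outside were Tbrg3 at 1003 bp and Gm41673 and A230083G16Rik at 1006 bp. In H3.3WT the last inside were Gm12764 at 970 bp, Malat1 at 974 bp and Gm29443 at 996 bp, and the first outside were Gm32700 at 1005 bp, Gm41673 at 1010 bp and LOC115490435 at 1012 bp. A further 145 genes in H3.3K27M and 104 in H3.3WT had their nearest summit between 1 and 2 kb from an end. Fold values just inside ran from 4.06 to 16.4 in H3.3K27M and from 4.67 to 5.86 in H3.3WT, and just outside from 4.41 to 5.17 in H3.3K27M and from 3.27 to 4.01 in H3.3WT.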

How the data were processed

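CBFA2T2 ChIP-seq peak lists of H3.3K27M and H3.3WT cells, 1 library each, were used, and the other libraries of the 19 in the series were not analysed here. They include a CBFA2T2 ChIP of H3.3WT cells with a Cbfa2t2 knockout, and the peaks were not checked against it. Per the submitters' processing notes, Trim Galore had trimmed the reads and MACS2 had called peaks, on mouse build mm10. The aligner is not given in the sources used here, nor are the options of the caller. The fold, a ratio of ChIP signal over local background, the −log10 p and the −log10 q of each peak are the authors' values and were used as deposited to describe and rank peaks within a list. The deposited score, the whole-number part of 10 times −log10 q, was not used. The smallest −log10 q was 1.31 in H3.3K27M and 1.33 in H3.3WT, so weaker sites were removed before deposit, and a library with more reads can give more peaks. Depth is unknown.

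Gene spans came from RefSeq GRCm38.p6, in which 21 of 49997 genes without coordinates were left out. Strand and start windows came from RefSeq promoter entries of the same assembly. The peak of highest −log10 q represented a gene. Coordinates are 1-based. Members and lncRNA lists were chosen with earlier results of these data known. Named genes were the 10 of highest fold and the 5 of highest −log10 q per list, the 5 of highest −log10 q per list that had no peak within 1 kb in the other, the marked members of 10 lncRNA lists and the 3 genes on each side of the window's edge. Genes with small RNAs and shared peaks were named after their values were seen. Peaks overlapped if they shared 1 bp. The marking code was tested on simulated data with planted summits. Python 3.11.15, pandas 2.3.3, numpy 2.4.6, SciPy 1.17.1 and matplotlib 3.10.9 were used.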

Additional observations from a re-analysis of the deposited data

How the results depend on the processing

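Of 154 values recomputed under 15 alternatives, 104 lay within the interval of the value reported (for shares and medians) or within 1.5 times of it (for counts), and 50 did not. Requiring −log10 q of at least 5 gave marked shares of 1.82% in H3.3K27M and 1.35% in H3.3WT, 82 genes in H3.3K27M alone, and median folds of 5.87 in H3.3K27M and 6.50 in H3.3WT. Lists of equal length, cut by −log10 q, gave 1.97% in H3.3K27M, 74 genes in H3.3K27M alone, a median fold of 5.69 in H3.3K27M, and 67.0% of H3.3K27M and 69.2% of H3.3WT peaks shared. Requiring at least 5 fold gave 1.39% in H3.3K27M and 1.11% in H3.3WT, 82 genes in both, 67 in H3.3K27M alone, median folds of 6.53 in H3.3K27M and 7.08 in H3.3WT, 8 listed genes in H3.3K27M and 7 in H3.3WT, and 66.4% of H3.3WT peaks shared. A 500 bp window gave 1.87% in H3.3K27M and 1.31% in H3.3WT, with 90.6% at the start in H3.3K27M. A 3 kb window gave 5.15% in H3.3K27M and 3.75% in H3.3WT, 312 genes in both, 238 in H3.3K27M alone, 89 in H3.3WT alone, and 73.8% at the start in H3.3K27M and 72.3% in H3.3WT. Counting any part of a peak gave 2.99% in H3.3K27M and 2.14% in H3.3WT. Members at least 5 kb from coding gene ends gave 1.91% in H3.3K27M and 1.40% in H3.3WT, with 94 genes in both, 76 in H3.3K27M alone and 30 in H3.3WT alone, and 10 listed genes in H3.3K27M and 6 in H3.3WT. Members that overlap no coding gene gave 2.20% in H3.3K27M and 1.56% in H3.3WT, with 88 genes in both, 73 in H3.3K27M alone and 26 in H3.3WT alone. In these last 2 settings fewer genes entered, 8883 and 7325. Overlap of at least 50% of both peaks gave 47.0% of H3.3K27M and 64.1% of H3.3WT peaks shared, and summits within 200 bp gave 67.2% in H3.3WT. Leaving out peaks also within 1 kb of coding, tRNA, snRNA, snoRNA or miRNA gene ends, chosen after seeing the data, gave 2.23% in H3.3K27M and 1.56% in H3.3WT. Leaving out those at coding gene ends, likewise chosen after seeing the data, gave 5.60% in H3.3K27M and 3.24% in H3.3WT for genes 1 to 2 kb from a coding gene end. In each setting that changes the peaks, the window or the members, the marked share was higher in H3.3K27M. The 2 settings on shared peaks do not bear on it. With lists of equal length the shares were 1.97% (1.73 to 2.26%) in H3.3K27M and 1.85% (1.61 to 2.13%) in H3.3WT, with overlapping intervals. The other settings did not equalise the lengths of the lists, so their direction cannot be told apart from list length. Removal of the highest folds moved none of these values past the limits. Removal of peaks with −log10 q of at least 20 but under 3 fold left every value as reported, and so did a 1-based summit. The values of both settings are counted among the 104 and add nothing to what that count shows. No paired analysis was possible because each genotype has 1 library and no test was run. Without read counts, depth cannot be told apart from genotype, and a gene without a peak is one without a called peak.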

Other observations

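Peaks inside the bodies of standalone lncRNA genes, more than 1 kb from both ends, were no part of the shares above. Such summits lay in 256 genes in H3.3K27M and 195 in H3.3WT, from 274 peaks in H3.3K27M and 210 in H3.3WT, of which 199 in H3.3K27M and 154 in H3.3WT were more than 1 kb from coding gene ends. Mir670hg, a miRNA host without a summit at its ends, held an internal peak of 28.7 fold in the H3.3K27M list, against 18.1 fold in the H3.3WT list. Gm34259 held one of 39.9 fold in the H3.3K27M list, against 30.8 fold in the H3.3WT list, and Gm46880 one of 33.9 fold in the H3.3K27M list, against 20.04 fold in the H3.3WT list. In Gm6410 the internal peak had 23.7 fold in the H3.3K27M list, against 15.8 fold in the H3.3WT list. Banf2os held 2 internal peaks, of 9.08 and 6.61 fold in H3.3K27M and 9.03 and 6.58 fold in H3.3WT. Gm33838 held an H3.3WT peak of 2.20 fold whose −log10 q was 715. All of them were picked by name with their values in view, and the cause of the pairing of low fold with high −log10 q was not tested.

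By chromosome, the X had 12 of 236 standalone lncRNA genes marked in H3.3K27M (5.08%, 2.93 to 8.68%) and 7 in H3.3WT (2.97%, 1.44 to 5.99%), against 2.61% of all such genes in H3.3K27M and 1.85% in H3.3WT, with Jpx and Firre among the 12. The H3.3WT interval of the X holds the share of all genes. Its H3.3K27M interval lay above that share, as did that of chromosome 2, with 30 of 780 marked (3.85%, 2.71 to 5.44%). In H3.3WT the intervals of chromosomes 2, 5 and 19 lay above the share, with 22 of 667 marked on chromosome 5 (2.19 to 4.94%). Those of chromosomes 3 and 14 lay below it in H3.3WT. The X and chromosome 19 were picked with the values of all chromosomes in view. Chromosome 19 had 7 of 273 in H3.3K27M (2.56%), about the share of all genes, and 10 in H3.3WT (3.66%), among them Malat1 and Neat1 in both lists. Lockd, downstream of the cell cycle inhibitor gene Cdkn1b, had 5.53 fold in the H3.3K27M list, against 4.67 fold in the H3.3WT list. Crnde, next to Irx5, had 5.47 fold in the H3.3K27M list, against 4.58 fold in the H3.3WT list. Lockd and Crnde were likewise picked with values in view.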
